A study of Mus musculus with 3 samples.

Results

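The interferon-inducible p200 family, also called the HIN200 or PYHIN family, was followed through 9 genes chosen by symbol: Ifi203, Ifi204, Ifi205, Ifi207, Ifi208, Ifi209, Ifi211, Ifi213 and Mndal. Levels and counts given below for the family refer to these 9 genes only, although the same cluster holds other genes as well. All 9 were found among the 55536 genes of the deposited tables, of which 22028 are protein-coding. The RNA came from the cytosol of cultured bone-marrow macrophages, a primary cell type, from the mouse strain C57BL/6J. The cultures had received Lipid A, the part of bacterial lipopolysaccharide that TLR4 recognises, at 100 ng/ml for 12 h. They then spent 12 h without it and were stimulated again at the same 100 ng/ml for 10 min before harvest. All 3 libraries of ribosome-depleted total RNA, replicates 1, 2 and 3, carry this one treatment, and no other condition was analysed here. The labels call the libraries biological replicates but give them a single donor identifier, so the tests below measure the spread between libraries, which may not be a spread between animals. Age and sex were not collected, per the labels.

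Proteins of this family carry a pyrin domain for protein contacts, a HIN domain that binds DNA, or both, and they work in the nucleus and cytosol as sensors of DNA and as regulators of transcription and growth. Their genes sit side by side in a cluster that has expanded in the mouse by duplication, and they are known targets of type I interferon. In macrophages, lipopolysaccharide induces interferon beta through TLR4, and the secreted interferon then acts through its receptor, the JAK kinases and transcription factors that include STAT2 and IRF9.

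The 9 genes lie within 465.5 kb of chromosome 1 on the mm10 assembly, 7 on the minus strand and 2 on the plus strand. From low to high coordinate, Ifi213 occupies chr1:173566283-173599274 on the minus strand, Ifi209 chr1:173630917-173647928 and Ifi208 chr1:173673675-173698395 on the plus strand, and Ifi207 chr1:173723427-173741747 and Ifi204 chr1:173747293-173766943 on the minus strand. Further along the minus strand, Mndal spans chr1:173849126-173942491, Ifi211 chr1:173896345-173913046, Ifi203 chr1:173920407-173942672 and Ifi205 chr1:174011998-174031810. The annotated span of Mndal contains that of Ifi211 and overlaps that of Ifi203 on the same strand. The first base of the leading Mndal transcript, position 173942491, is also the first base of the leading Ifi203 transcript, while 5 of the other 9 Mndal transcripts begin between positions 173880111 and 173880881.

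**Figure D1:**
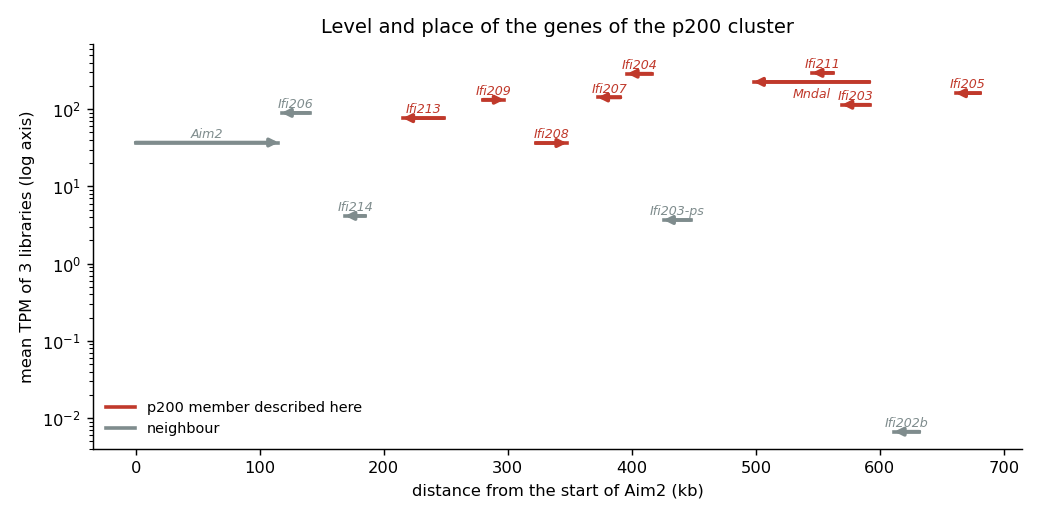
Mean TPM over the 3 libraries (vertical axis, log scale) of each gene in the cluster against its distance in kb from the start of Aim2 (horizontal axis). Arrows span the annotated gene and point along its strand, red for the 9 family genes and grey for neighbours. The red arrows lie between 36.5 and 296 TPM, and the grey arrows between 0.0067 TPM for Ifi202b and 89.8 TPM for Ifi206.

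Because these genes are textbook interferon targets, their promoters were read for the core of the interferon-stimulated response element, a site known from promoters of interferon-stimulated genes, spelled GAAA-NN-GAAA, on both strands. RefSeq promoter windows on GRCm38.p6, from 250 bases before to 50 bases after an annotated start, were matched for 8 of the 9 genes, the other being Ifi204. With a gene counted when any of its windows held a match, the motif was found in 7 of these 8, the other being Ifi209, and in 3.99% of 27025 genes with a window. The gamma-activated site, TTCNNNGAA, was found in 0 of the 8 genes and in 9.55% of all genes. Among neighbours in the cluster, GAAA-NN-GAAA was also found in the windows of Ifi206 and Ifi214 and not in those of Aim2 and Ifi202b. The sense-strand match of each of the 7 genes is shown with 20 bases on either side, read 5′ to 3′ along the gene, with the motif in capitals, to show how alike the stretches are. The last line, Ifi209, is not a match: its capitals mark a near match with 1 mismatch, described below.
Ifi211: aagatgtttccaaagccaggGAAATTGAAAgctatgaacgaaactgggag
Ifi205: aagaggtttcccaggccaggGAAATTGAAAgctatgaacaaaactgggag
Ifi207: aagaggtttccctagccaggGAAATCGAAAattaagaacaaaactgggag
Mndal: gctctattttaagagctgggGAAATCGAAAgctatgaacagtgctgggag
Ifi203: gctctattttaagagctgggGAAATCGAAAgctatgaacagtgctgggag
Ifi208: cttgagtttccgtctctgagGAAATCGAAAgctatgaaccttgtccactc
Ifi213: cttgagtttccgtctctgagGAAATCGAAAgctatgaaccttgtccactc
Ifi209: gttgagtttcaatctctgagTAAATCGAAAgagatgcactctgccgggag

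The 7 matching stretches fall into 3 kinds. The 50-base stretches of Mndal (chr1:173880194-173880243) and Ifi203 (chr1:173942498-173942547), both on the minus strand, are identical although they lie at separate places. The stretches of Ifi208 (chr1:173673587-173673636, plus strand) and Ifi213 (chr1:173599316-173599365, minus strand) are likewise identical to each other. Those of Ifi205 (chr1:174031860-174031909) and Ifi211 (chr1:173913054-173913103), on the minus strand, share 46 of 50 bases, and that of Ifi207 (chr1:173741821-173741870, minus strand) shares 44 with Ifi205 and 42 with Ifi211. Between kinds, identity was 25 to 35 of 50 bases, and 20 positions held the same base in all 7. All these counts include the fixed bases of the motif, which are the same in every stretch because each was chosen for a match. The motif began 35 bases upstream of the RefSeq start in Ifi203, 36 in Mndal, 37 in Ifi211, 41 in Ifi207, 58 in Ifi208, 73 in Ifi213 and 134 in Ifi205. Ifi205 and Mndal each had another match on the opposite strand. Ifi203 and Mndal have 2 RefSeq starts, each with its own window, and the distance is from the start whose window held the sense-strand match. The other Ifi203 window held no match, and the other Mndal window held the opposite-strand match. The Ifi209 stretch (chr1:173630760-173630809, plus strand), looked for after the matches were known, begins its near match 79 bases upstream and differs from the motif by G1T, counted from the motif's 5′ end with the motif's base first. It is one of 2 near matches in the Ifi209 window and was chosen for its likeness to the other stretches. The other differs by G7C and lies 177 bases upstream. A sense-strand match with at most 1 mismatch was present in 20.1% of 32851 promoter windows, so such a near match is common.

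Library totals were 32108408, 53165872 and 57117456 expected counts in replicates 1, 2 and 3. TPM, a count corrected for transcript length and scaled to the same sum in each library, was shaped by the 7SL RNAs, which took 52.2% to 62.8% of it, and nuclear protein-coding genes held 34.3%, 27.8% and 27.8% in replicates 1, 2 and 3. All 8 macrophage markers passed 10 TPM in every library, with Lyz2 at 2989 ± 197 TPM and Csf1r at 150 ± 8.93 TPM (SD, n = 3). No marker of lymphocytes, erythroid cells, dendritic cells or fibroblasts reached 1 TPM in every library, and of 7 neutrophil markers only S100a9 and S100a8 did, at 5.45 ± 1.21 and 3.04 ± 1.01 TPM. Replicate 1 stood apart in RNAs that stay in the nucleus: Malat1 had 1333, 118 and 152 TPM in replicates 1, 2 and 3, Neat1 66.0, 13.9 and 17.6, and Xist 32.6, 0.42 and 0.35. Firre, Airn and Kcnq1ot1 had 3.29, 1.46 and 0.46 TPM in replicate 1 and at most 0.55, 0.68 and 0.01 TPM in the others. Thus all 6 nuclear-retained RNAs examined were highest there, with a median log2 difference of 2.89 from the other libraries. Over all 12515 genes tested on scaled log2 CPM, described below, 40.3% were highest there and the median difference was -0.01.

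The 9 genes were expressed at high levels. All 9 had at least 10 TPM in every library, a level reached by 17.3% of the 22028 protein-coding genes, and 7 had at least 50 TPM in every library, which 3.74% of protein-coding genes reached. The exceptions at 50 TPM were Ifi213 and Ifi208. In the transcript table with estimated counts 8 of 9 had at least 10 TPM as deposited, since Ifi208 had 8.77 and 8.24 TPM in replicates 2 and 3. Their median level was 142 TPM, against 8.71 TPM over protein-coding genes with at least 1 TPM in every library. Together they held 2159.7, 1103 and 1162 TPM in replicates 1, 2 and 3, a mean of 1475 ± 594 TPM (SD, n = 3). As a share of nuclear protein-coding TPM the 9 genes made up 0.629%, 0.397% and 0.419%. In bulk RNA, fewer cells expressing a gene and less RNA of it per cell cannot be told apart.

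Ifi204 encodes p204, which has been described as a cytosolic DNA sensor acting through STING and as a regulator of cell growth and differentiation. It had 398, 221 and 247 TPM in replicates 1, 2 and 3, a mean of 289 ± 95.7 TPM and rank 108 among protein-coding genes. Ifi211, whose older symbol in RefSeq is Mnda, had 399.8, 236 and 253 TPM, a mean of 296 ± 90.2 TPM and rank 98. In the alignment-based gene table these 2 genes led the family, with a similar share of its TPM (19.9 ± 1.41% for Ifi204 and 20.5 ± 1.77% for Ifi211). Their ratio was 0.04 ± 0.04 on the log2 scale (mean and SD over 3 libraries), so the difference was no larger than its spread. In the transcript table with estimated counts, rescaled over nuclear protein-coding genes, it was 0.10 ± 0.07, and Mndal was the highest of the 9 in replicate 1, with 1169 rescaled TPM, against 1122 for Ifi211 and 1101 for Ifi204.

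Ifi205 encodes p205, described in macrophages as a regulator of the inflammasome adaptor ASC. It had 259, 101 and 124 TPM, a mean of 161 ± 85.4 TPM. Mndal, a relative of the nuclear antigen MNDA, had 343, 165 and 169.6 TPM, a mean of 226 ± 102 TPM. Ifi203, which overlaps Mndal, had 169.5, 86.6 and 87.3 TPM, a mean of 114 ± 47.7 TPM. In each of the 3 libraries the gene total of Mndal in TPM, transcripts from both starts together, exceeded those of Ifi203 and Ifi205. By expected counts, which are not corrected for length, Mndal had 18430, 18747 and 21943 in replicates 1, 2 and 3. Ifi203 was above it in each library, with 21433, 22627 and 25539 counts, and Ifi205 below it, with 17338, 13675 and 18420.

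Ifi207, the gene with the longest coding sequence of the family, had 193, 123 and 110.3 TPM, a mean of 142 ± 44.3 TPM. Ifi209, on the plus strand, had 199, 98.5 and 101 TPM, a mean of 133 ± 57.6 TPM. Ifi205, Ifi207 and Ifi209 could not be ordered: the log2 ratio of Ifi205 to Ifi207 was 0.10 ± 0.36 and that of Ifi207 to Ifi209 was 0.14 ± 0.19, and each held its sign in 2 of 3 libraries. The table with estimated counts left them unordered too, with Ifi209 above Ifi207 by mean.

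Ifi213 and Ifi208, once named Pydc4 and Pydc3 for their pyrin domains, were the lowest. Ifi213 had 138, 48.3 and 43.8 TPM, a mean of 76.7 ± 53.1 TPM, and Ifi208 had 59.6, 23.3 and 26.5 TPM, a mean of 36.5 ± 20.1 TPM and rank 1307. The highest mean in the family, that of Ifi211, was 8.11 times that of Ifi208. Although the promoter stretches shown above are identical between Ifi213 and Ifi208, the TPM of Ifi213 exceeded that of Ifi208 in 3 of 3 libraries, by 0.99 ± 0.25 on the log2 scale. By expected counts, which are not corrected for length, Ifi208 was the higher in replicates 2 and 3. Ifi213 had 8710, 5871 and 6161 counts in replicates 1, 2 and 3, and Ifi208 had 7562, 6040 and 7586. The 643-base transcript Ifi213-205, with 1368, 1103 and 977 counts, held 73.6, 27.9 and 23.6 of the Ifi213 TPM. For the other pair with identical stretches, the 5 Mndal transcripts that begin near the Mndal stretch summed to 112, 50.2 and 48.7 TPM in replicates 1, 2 and 3, below Ifi203 in each library. These sums rest mostly on a short transcript: the 367-base noncoding Mndal-209 gave 78.6, 38.7 and 34.1 TPM from 484, 545 and 453 expected counts. Mndal-201, which begins at the Ifi203 start, had 185, 98.7 and 106 TPM.

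The remaining neighbours in the order of means differed by more than the spread of their ratio over libraries, with the same sign in 3 of 3. The log2 ratio was 0.39 ± 0.17 for Ifi204 over Mndal, 0.52 ± 0.16 for Mndal over Ifi205, 0.21 ± 0.02 for Ifi209 over Ifi203 and 0.71 ± 0.37 for Ifi203 over Ifi213. In the table with estimated counts, Ifi204 over Mndal was 0.17 ± 0.25 and held its sign in 2 of 3 libraries, so that order was lost there, while the other 3 kept their sign in 3 of 3. An exact paired permutation test over 3 libraries cannot give a two-sided p below 0.25, so these are stated as ratios with their spread. The Mndal total includes the 367-base noncoding Mndal-209, with 78.6, 38.7 and 34.1 TPM in replicates 1, 2 and 3. Mndal-201 alone, with 185, 98.7 and 106 TPM, was below the Ifi205 total in each library.

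**Figure D2:**
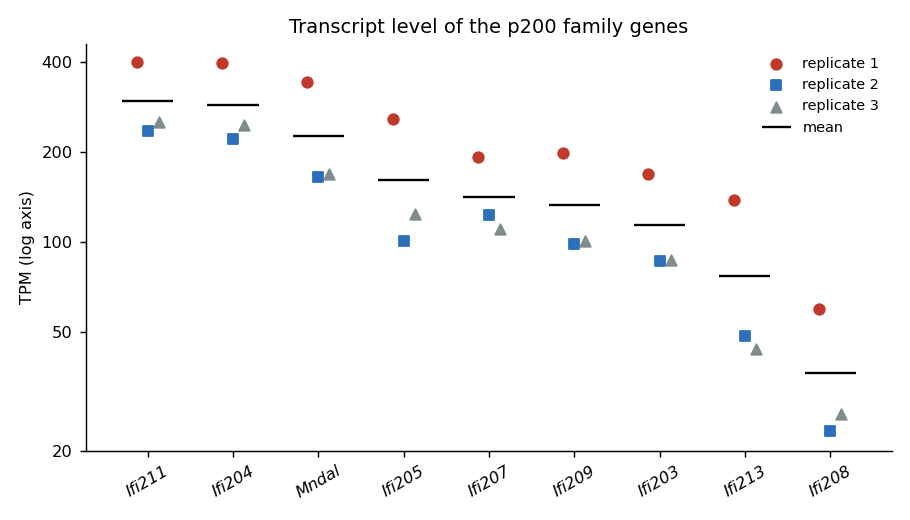
TPM on a log axis (vertical) of each family gene (horizontal, ordered by mean) in each library, with a bar at the mean. Replicate 1 is the highest point for every gene, and replicates 2 and 3 lie close together, as for Ifi211 with 399.8 TPM in replicate 1, 236 TPM in replicate 2 and 253 TPM in replicate 3.

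All 9 genes were highest in replicate 1, and this did not come from the TPM scaling alone. On log2 CPM scaled between libraries by TMM, 9 of 9 genes were again highest in replicate 1, whereas 40.3% of the 12515 genes tested were. None of the 9 was highest in replicate 2 or replicate 3, as 33.8% and 25.9% of the genes tested were. Counts of all 9 varied between libraries beyond counting error (chi-square test against a single rate, Benjamini-Hochberg adjusted over all genes tested), a call that 71.4% of genes received, so variation as such does not set the family apart. The depth behind this is high, from 5871 expected counts for Ifi213 in replicate 2 to 52569 for Ifi204 in replicate 3.

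The excess in replicate 1 was uneven. Measured as log2 CPM minus the mean of the other libraries, it was 1.37 for Ifi213, 1.00 for Ifi208 and 0.97 for Ifi205. It was 0.72 for Ifi209, 0.70 for Mndal and 0.67 for Ifi203, and lowest for Ifi204 with 0.48, Ifi207 with 0.46 and Ifi211 with 0.45. The median over the family was 0.70, against -0.01 over all genes tested, whose quartiles were -0.22 and 0.25 and whose 5th to 95th percentiles ran from -0.60 to 1.03. Each gene of the family thus lay above the upper quartile of all genes, and Ifi213 alone lay above the 95th percentile. In replicates 2 and 3 the family medians were -0.41 and -0.28.

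The biological coefficient of variation, the spread between replicates as a fraction of the mean after counting error is removed, had a median of 0.228 over the family and 0.172 over all genes tested. Ifi213 had the highest, 0.371, above that of 90.8% of genes, and Ifi211 the lowest, 0.188. Without replicate 1 the median was 0.0978 for the family and 0.105 over all genes. Between replicates 2 and 3 alone, 8 of the 9 genes still varied beyond counting error, where 40.4% of genes did, and the exception was Ifi213 with an adjusted p of 0.294 by the chi-square test, fitted across all genes with edgeR library scaling. Mndal, for example, differed by 0.12 on the log2 scale between replicates 3 and 2, and Ifi205 by 0.32. The nuclear-retained RNAs described above were also highest in replicate 1, and their part in the excess of the family was not tested.

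**Figure D3:**
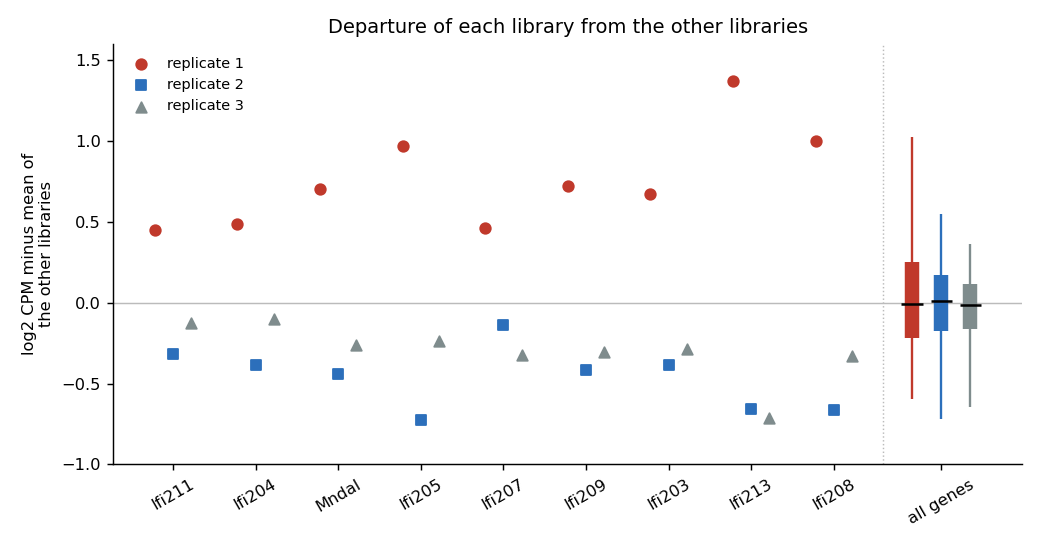
Log2 CPM of each library minus the mean of the other libraries (vertical axis) for each family gene (horizontal axis) and, at the right, for all 12515 genes tested. For all genes, thick bars span the quartiles, thin lines the 5th to 95th percentiles and black bars mark the median. The red points for replicate 1 lie between 0.45 and 1.37, and all points for replicates 2 and 3 lie below 0.

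Most members were read from 1 main transcript. Ifi211 has a single annotated transcript of 1785 bases, and 1 coding transcript held 99.9% of TPM in Ifi207, 99.0% in Ifi208, 97.7% in Ifi209, 97.3% in Ifi204 and 96.2% in Ifi205. Ifi203, Ifi213 and Mndal were split among several. In Ifi203, with 9 annotated transcripts, Ifi203-205 held 31.5 ± 1.09% of TPM, Ifi203-202 20.7 ± 3.21%, Ifi203-203 19.9 ± 5.90% and Ifi203-201 10.7 ± 0.45% (SD, n = 3). In Mndal, with 10, the transcript Mndal-201 that starts at the Ifi203 start held 58.8 ± 4.44%, and Mndal-209, a noncoding processed transcript of 367 bases, held 22.1 ± 1.80%.

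Ifi213 had the most unusual makeup. Its leading transcript by TPM, Ifi213-205, is 643 bases long and annotated as coding, and it held 55.0 ± 2.40% of TPM, while Ifi213-202 held 19.8 ± 1.94% and Ifi213-201 17.9 ± 1.99%. By counts the order differed: Ifi213-205 had 1368, 1103 and 977 expected counts in replicates 1, 2 and 3, and Ifi213-202, 2748 bases long, had 3384, 2009 and 2352. The short transcript thus held the most TPM, which divides by length, with fewer counts than the longer one in each library.

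Transcripts annotated as retaining an intron exist for 6 of the 9 genes. Their share of the gene's TPM was 6.91%, 0.531% and 0.504% in replicates 1, 2 and 3 for Ifi203, and 5.85%, 1.20% and 1.17% for Ifi204. It was highest in replicate 1 for all 6 genes, but it was so for 86.1% of the 5509 protein-coding genes with such transcripts. The table with estimated counts gave 6 of 6 and 92.6%, so the count in the family is near the background. The smallest such difference was that of Ifi205, with 4.68%, 3.28% and 3.44%.

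Because the genes arose by duplication, reads may be shared between them, and the sequence of each main coding transcript, the one with the most counts, was compared with the others. Coding sequences were 1212 bases long in Ifi205, 1260 in Ifi209, 1275 in Ifi211, 1614 in Mndal, 1758 in Ifi213, 1764 in Ifi208, 1857 in Ifi204, 2613 in Ifi203 and 2934 in Ifi207. Over aligned positions, the 36 pairs were 61.2% to 96.9% identical with a median of 69.5%. Ifi208 and Ifi213 were the closest pair at 96.9%, followed by Ifi204 and Ifi211 at 96.3%, an alignment that covers 68.7% of the longer Ifi204, and Ifi205 and Ifi211 at 94.7%. In the first 270 coding bases, the end that encodes the pyrin domain, Ifi204 and Ifi211 were 99.6% identical, Ifi208 and Ifi213 98.9%, and Ifi203 and Mndal 97.4%. Ifi203 and Mndal, which also share the promoter stretch, were 80.4% identical over the whole alignment.

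Ifi211, the highest gene, was also the one with the most shared sequence. Of its 31-base stretches, 79.2% occurred in transcripts of another gene on either strand. Ifi205 held 48.8% of all Ifi211 stretches and Ifi204 38.8%, and at 100 bases 56.9% were still shared. Ifi205 shared 56.5% at 31 bases and 41.5% at 100 bases, nearly all with Ifi211. Ifi209 shared 48.9%, mostly with its neighbour Ifi214, and Ifi203 shared 42.6%, mostly with the pseudogene Ifi203-ps. Ifi213 and Ifi208 shared 46.0% and 43.1%, Ifi204 46.0% and Mndal 42.5%. Ifi207 stood at the other end with 14.6% at 31 bases and 0.813% at 100 bases. Longer stretches left little sharing in Ifi203 (4.09% at 100 bases), Ifi213 (6.12%), Mndal (8.13%) and Ifi208 (8.23%).

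**Figure D4:**
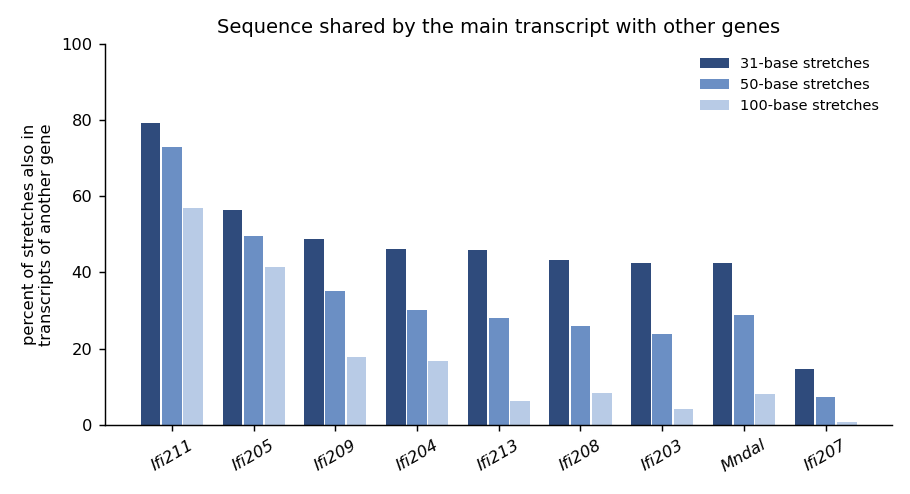
Percent of all stretches of 31, 50 and 100 bases in the main coding transcript of each family gene (horizontal axis) that also occur in a transcript of another gene (vertical axis). Ifi211 keeps 56.9% at 100 bases and Ifi207 0.813%.

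Despite this overlap the deposited quantifications placed the genes at like levels. The level from the transcript table with estimated counts made directly from reads, over that from the alignment-based gene table, both rescaled to nuclear protein-coding genes, ran from 0.961 for Ifi204 to 1.13 for Mndal and 1.14 for Ifi209. None of the 9 genes differed by over 1.5 times, and 1.89% of the 9110 protein-coding genes compared did. In TPM as deposited, without rescaling, all 9 differed by over 1.5 times, and the share of all genes that did so was not computed. Nuclear protein-coding genes held 34.3%, 27.8% and 27.8% of TPM in replicates 1, 2 and 3 in the alignment-based gene table. They held 24.3%, 10.1% and 8.15% in the table with estimated counts, so the scales differ for protein-coding genes as a whole. Ifi211, the gene with the most shared sequence, had a ratio of 0.998. The deposited posterior SD of the count, a measure of how uncertain the split of shared reads is, was above 0.1% of the count in every library for 4 of 9 genes (Ifi205, Ifi211, Ifi204 and Ifi208). The share was 14.1% over the 9110 protein-coding genes with at least 1 TPM in every library. This SD was highest for Ifi205, 0.350% to 0.437%, and lowest for Ifi207, 0.00304% to 0.00492%, the gene with the least shared sequence. Because the annotated span of Mndal overlaps those of Ifi203 and Ifi211 on the same strand, strand cannot separate reads from any parts they have in common. The extent of exons shared between these genes was not computed.

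The tables parted on single transcripts. Ifi203-203 held 19.9% of the gene's TPM in the alignment-based table and 1.57% in the table with estimated counts. The Ifi209 transcript annotated as a target of nonsense-mediated decay held 2.27% in the alignment-based table and 31.2% in the table with estimated counts. Ifi208-202 was listed at 0 in the alignment-based table and held 10.2% in the other. At the level of whole genes the tables stayed within the ratios given above.

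Other genes of the cluster, which were not among the chosen genes, ranged more widely than the chosen ones. Ifi206, whose transcript shares 31-base stretches with Ifi208 and Ifi213, had 129, 72.5 and 68.3 TPM in replicates 1, 2 and 3. Aim2, the sensor of double-stranded DNA that builds an inflammasome, had 51.1, 31.6 and 28.5 TPM. Ifi214 had 5.83, 3.27 and 3.37 TPM and the pseudogene Ifi203-ps had 6.96, 2.14 and 1.93 TPM, both of which share stretches with a family gene. Ifi202b, a gene whose expression is known to differ between mouse strains, had 0, 2 and 1 expected counts. The 4 neighbours with enough counts to test were each highest in replicate 1, as were all the chosen genes and 40.3% of all genes tested. Their median log2 departure from the other libraries was 0.68, beside -0.01 over all genes.

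Of 12 genes of cytosolic DNA sensing, the pathway in which p204 has been placed, 7 had at least 10 TPM in every library. The 4 highest were the transcription factor Irf7 with 729 ± 255 TPM, the dNTP hydrolase Samhd1 with 375 ± 130 TPM, the nucleic acid sensor Zbp1 with 177 ± 42.5 TPM and the exonuclease Trex1 with 146 ± 34.1 TPM (SD, n = 3). The lowest were the nuclease Mre11a with 3.38 ± 0.33 TPM and Cgas, the enzyme that makes the second messenger for STING, with 2.90 ± 0.55 TPM. Family genes such as Ifi204 at 289 TPM thus stood far above Cgas in every library. Counts of 8 of the 12 varied between libraries by the same chi-square test, beside 71.4% of all genes tested. Of the 8, 6 were highest in replicate 1 and 1 lowest there, and over all genes 30.5% both varied and were highest in replicate 1. The median departure of the list was 0.22.

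Ifnb1, the gene of interferon beta, was low, with 4.04, 0.79 and 0.97 TPM in replicates 1, 2 and 3. The genes that carry its signal were measured well, with Stat2 at 146 ± 56.0, Ifnar2 at 65.3 ± 8.43, Irf1 at 57.8 ± 20.98 and Jak1 at 37.9 ± 4.67 TPM. Ifnar1 had 25.1 ± 4.30, Irf9 24.98 ± 3.50 and Tyk2 24.5 ± 9.42 TPM. On log2 CPM each of these genes except Ifnar2 was highest in replicate 1, as were 40.3% of all genes tested. Among them Ifnb1 had the largest departure, 1.88, and the receptor chain Ifnar2 and the kinase Jak1 the smallest, 0.01 and 0.04. Those of Irf9 and Ifnar1, 0.08 and 0.09, also lay within the quartiles of all genes, -0.22 and 0.25.

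Of 16 further interferon-stimulated genes, all had at least 10 TPM in every library, all varied, as did 71.4% of all genes tested, and all were highest in replicate 1, as were 40.3%. Their median departure there was 0.73, beside 0.70 for the p200 family. The 4 highest were Ifit2 with 975 ± 447 TPM, Rsad2 with 890.0 ± 489 TPM, Ifit3 with 651 ± 223 TPM and Isg15 with 628 ± 255 TPM, all known antiviral effectors. The lowest were Gbp3 with 93.3 ± 44.9 TPM and the RNA sensor Ifih1 with 51.7 ± 24.97 TPM. In the macrophage markers, by contrast, 2 of 8 were highest in replicate 1 and the median departure was -0.09.

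The nuclear protein-coding genes whose log2 CPM over the 3 libraries lay nearest to that of Ifi211, after each gene's mean was removed, were N4bp1, Itgam and Trafd1, out of 4152 genes with at least 10 TPM on average. Their root mean square distances were 0.0025, 0.0032 and 0.0073 on the log2 scale. Itgam, the integrin CD11b of myeloid cells, had 60.3, 35.7 and 38.1 TPM in replicates 1, 2 and 3. N4bp1 had 19.3, 11.2 and 11.9 TPM, and Trafd1 had 164, 92.3 and 96.4 TPM. Each was high in replicate 1 and alike in the other libraries, which follows from the choice of genes nearest to Ifi211. Within the family, Ifi204 lay 0.031 from Ifi211, with 1.20% of candidates nearer, while Ifi213 lay 0.442 away, with 95.5% nearer. With 3 libraries of one condition this likeness describes only how replicate 1 and the others differ.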

How the data were processed

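For each library the authors deposited gene and transcript tables of expected counts and TPM, derived from reads aligned to the transcriptome (assembly mm10, GENCODE annotation M21), per notes supplied with the tables. The share of each transcript was computed here as its percent of the TPM summed over its gene's transcripts, and the posterior SD of the count is a deposited score. A further deposited transcript table holds estimated counts and TPM made directly from reads. The quantification tools and the strand setting are not given in the sources used. Rows naming no gene, 0.0823% to 0.435% of counts, stayed out of the tests.

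Expected counts were rounded, filtered with filterByExpr and scaled by TMM in edgeR 4.0.16 (R 4.3.3), with a prior count of 2 for log2 CPM. Each gene was tested by chi-square against a single rate, with Benjamini-Hochberg adjustment and a threshold of 0.05. DESeq2 1.42.0 gave alternatives. TPM was also rescaled over nuclear protein-coding genes. Sequences were aligned with Biopython 1.88. Members, gene lists, named-gene rules and alternatives were chosen with earlier results of these data known. Every family gene is named, as are the genes of pathway lists of 9 or fewer, except 1 gene of the interferon signalling list that is not reported here, the 4 highest and 2 lowest of longer lists, and transcripts with at least 10% of TPM. Other transcripts, and the few cell type markers named, were chosen after their values were seen.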

Additional observations from a re-analysis of the deposited data

How the results depend on the processing

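The family's summed level depended on scaling: 1475 TPM as deposited, 774 TPM in the transcript table with estimated counts, and 4817 over nuclear protein-coding genes. As deposited, without that rescaling, all 9 genes differed by over 1.5 times between the tables, whose scales differ for protein-coding genes as a whole. The order of the 9 genes was the same on log2(TPM + 1) and log2(TPM + 0.1), but in the table with estimated counts, added after seeing the data, Ifi209 passed Ifi207 and the order of Ifi204 and Mndal was lost. All 9 were highest in replicate 1 under DESeq2 size factors, plain library size, estimated counts and both TPM scalings, a check added after seeing the data. Leaving out each replicate in turn gave a summed level of 1133 to 1661 TPM, 8 to 9 varying genes and a median BCV of 0.0978 to 0.25. In the same fits 40.4% to 61.5% of all genes tested varied, and the median BCV over all genes was 0.105 to 0.220. The median departure of replicate 1 ran from 0.63 to 0.76 when another replicate was left out, that of replicate 2 from -0.76 to -0.12, and that of replicate 3 from -0.63 to 0.12. The positive value, without replicate 1, reversed the direction, since only replicate 2 then remained to compare with. No paired analysis was possible because all libraries belong to one group. Over all genes the median BCV was 0.614 with no filter on low counts, above the 0.204 of the family under the same setting. Of the shared-sequence percentages at 50 and 100 bases, 12 moved by over 1.5 times. Depth did not limit these genes, but 3 libraries of one condition give no contrast.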
